A study of Mus musculus with 7 samples.

Results

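The MYC, MAX and MXD network is a small set of transcription factor genes whose proteins pair through a shared basic helix-loop-helix leucine zipper. Its members here are Myc, Mycn, Mycl, Max, Mxd1, Mxd3, Mxd4, Mxi1, Mnt and Mga, taken by gene symbol from the deposited table of normalized counts. All 10 members were found among the 48440 genes of the table. Expression of the network was examined in the Lin-negative, Sca1-positive, cKit-positive (LSK) fraction of bone marrow (BM), where hematopoietic stem cells (HSCs) and multipotent progenitors are found. Sequencing covered 7 libraries of sorted LSK RNA, labelled as biological replicates within each group, to see how gene expression differs when PROSER1, an interactor of the TET proteins, is lost. The libraries held 33143619 to 45140743 read pairs on genes.

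The wild-type group comprised 4 libraries from recipients of wild-type BM. The other group comprised 3 libraries from recipients of BM that carries a constitutive, endonuclease-mediated knockout (KO) of PROSER1. In both groups C57BL/6 recipients had received 9.5 Gy of irradiation, split into 2 doses 3 h apart, before unfractionated BM was transplanted, and LSK cells were collected at day 77 with no further treatment. The age of the mice is not given in the sources used here. The KO is present in every donor cell from the germline onward, and host cells that survived irradiation could still contribute to the sorted cells. In bulk RNA of this kind, fewer cells of a type and less RNA per cell cannot be told apart.

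MYC, MYCN and MYCL activate transcription as dimers with MAX, which has no transactivation domain of its own. The MXD proteins (MXD1, MXI1, MXD3 and MXD4) and MNT compete for MAX and repress through SIN3 and histone deacetylases, while MGA pairs with MAX inside a Polycomb complex, PRC1.6. In the BM, MYC is known for driving growth and protein synthesis and for moving HSCs out of their niche toward differentiation.

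Dimers of the network bind the E-box CACGTG, which reads the same on both strands. Promoter windows of 300 bases (250 before and 50 after the start, RefSeq, GRCm38.p6) were matched by symbol for 9 of the 10 members (not Myc) and searched for these letters on both strands. The E-box was in the windows of 3 members, Max, Mnt and Mxd4, beside 8.09% of the 27025 genes with a window. It was also in 2 of the 3 genes of the neighboring MLX branch, Mlxipl (98 bases before the start) and Mlx, whose protein is a MAX-like partner of MNT and of some MXD proteins. The motif begins 3 bases before the start of Max (chr12:76962236-76962261, reverse strand), 123 before that of Mnt (chr11:74830791-74830816, forward strand), 219 before that of Mxd4 (chr5:34187914-34187939, reverse strand) and 40 before that of Mlx (chr11:101087240-101087265, forward strand). These stretches are shown because they carry the network's own binding letters, given in capitals.
Max: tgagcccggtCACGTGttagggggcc
Mnt: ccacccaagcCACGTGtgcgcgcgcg
Mxd4: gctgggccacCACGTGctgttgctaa
Mlx: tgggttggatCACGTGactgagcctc

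A match of letters is a description of the window and not evidence of binding. No windows of Mycn, Mycl, Mxd1, Mxd3, Mxi1 (3 windows) or Mga held the letters.

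Proser1, the targeted gene, was checked first. Its normalized counts, which are read pairs divided by 1 size factor per library and are the unit of all counts given here, were 2019, 2153, 2103 and 2077 for wild-type (replicates 1 to 4, the order kept hereafter) and 2464, 2359 and 2338 for the libraries labelled PROSER1 KO (replicates 1 to 3). Every library labelled PROSER1 KO thus held more Proser1 mRNA than every wild-type library (two-sided exact permutation test over 35 splits, p = 0.0286, the smallest that 4 against 3 allow). Of all genes tested, 5.17% were likewise higher without overlap. limma gave Proser1 a log2 fold change of 0.19 (95% interval 0.084 to 0.30, adjusted p = 0.204) and did not call it. An endonuclease-mediated KO need not lower the mRNA, so that this level cannot check the labels, on which each direction given here rests.

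Levels of different genes were set side by side as FPKM (read pairs scaled to exon length and to library depth), so that long and short genes can be ranked on 1 scale. Exon length is the union of all annotated exons of a gene, not the length of the transcripts expressed. Ratios between genes and their order depend on that choice. Myc led the network with a level per length of 109 ± 13.4 (SD over the 7 libraries), at percentile 97.6 of the genes tested. Max followed with 26.6 ± 1.39 and Mycn with 21.8 ± 1.96, so that the level per length of Myc was 4.10 times that of its obligate partner. Mxd4 (17.3 ± 1.71), Mnt (17.1 ± 1.26) and Mga (14.6 ± 1.15) formed a middle tier. Below them lay Mxi1 (7.23 ± 0.616), Mxd1 (4.00 ± 0.309), Mxd3 (3.05 ± 0.612) and Mycl (1.09 ± 0.452). The order of neighbors was compared within each library. Max exceeded Mycn and Mycn exceeded Mxd4 in 7 of 7 libraries, while Mnt exceeded Mga and Mxd1 exceeded Mxd3 in 6 of 7. Mxd4 exceeded Mnt in 3 of 7, so that these 2 genes have no set order. The remaining neighbors kept their order in 7 of 7. By this measure the repressor mRNA in LSK cells was mostly that of Mxd4 and Mnt, and the activator mRNA mostly that of Myc.

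**Figure D1:**
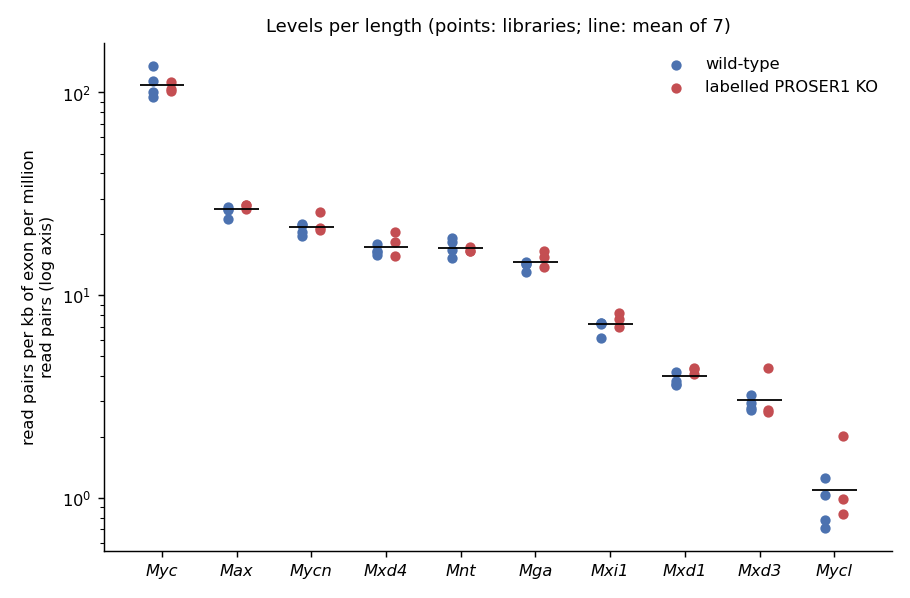
Levels per length (FPKM, log axis) of the 10 network genes, with 1 point per library (blue wild-type, red labelled PROSER1 KO) and a line at the mean of 7. Myc lies at 109, above Max at 26.6, and Mycl is lowest at 1.09.

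The groups were then compared by limma, using log2(normalized count + 1) of the 16251 genes whose mean was 10 or more. A gene counted as called when its fold change exceeded 1.5 and its p-value, adjusted over all these genes, was under 0.05. All 10 members passed the filter, and limma called 0 of them, beside 42 of all genes tested (0.258%). At an unadjusted p-value under 0.05 limma gave 0 members as well, beside 9.73% of all genes (5% higher and 4.74% lower in the KO-labelled libraries). On the recovered read pairs DESeq2 and edgeR also called 0 members, beside 0.873% and 0.246% of all genes. The 2 groups overlapped for each of the 10 members, whereas they did not overlap for 10% of all genes tested. The fitted log2 fold changes of the members ran from -0.072 to 0.35 with a median of 0.10, and 8 of the 10 were above 0, beside 50.6% of all genes. The 95% intervals of 9 members lay within a 1.5-fold difference in either direction, and Mycl was the exception.

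**Figure D2:**
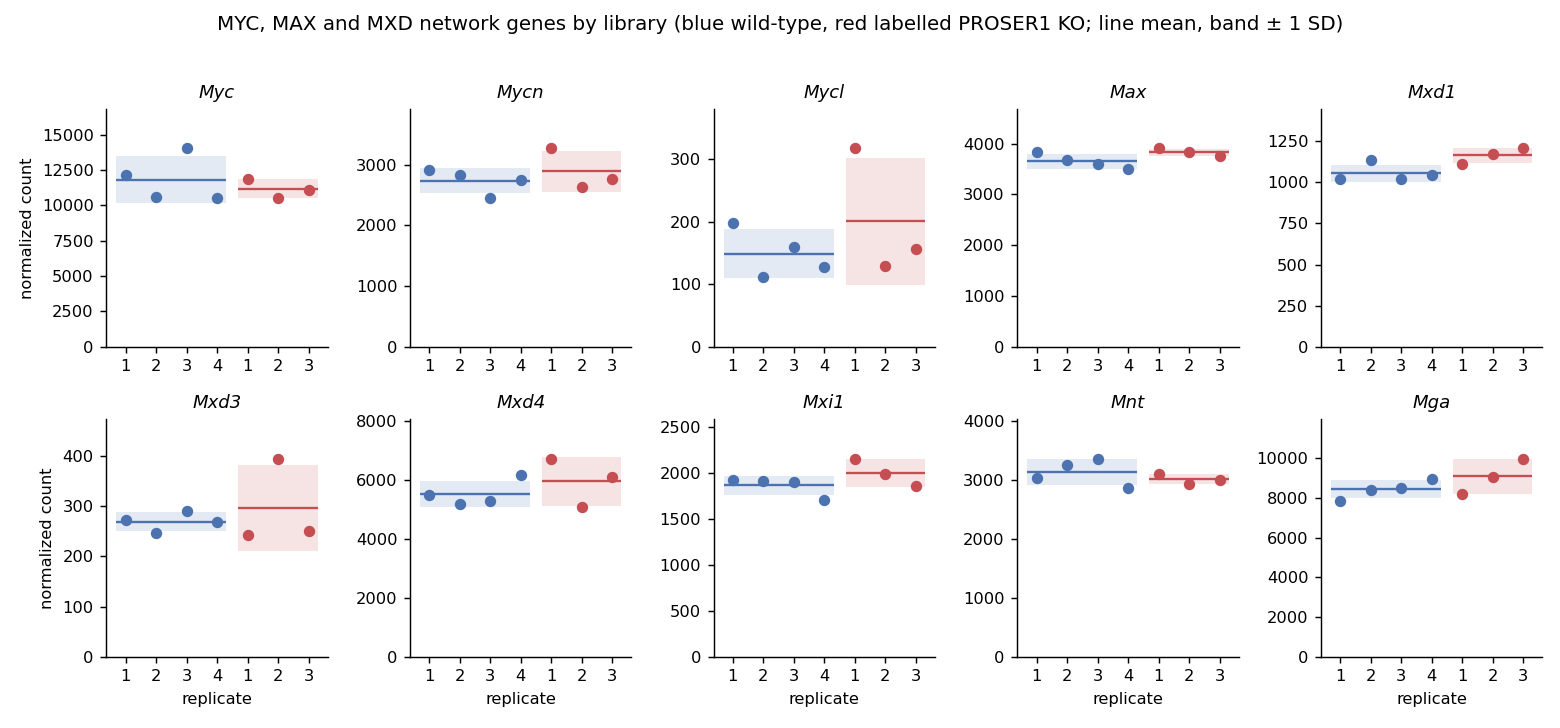
Normalized counts (linear axes from 0) of the 10 network genes in wild-type replicates 1 to 4 (blue) and in the libraries labelled PROSER1 KO, replicates 1 to 3 (red), with the group mean as a line and 1 SD as a band. The groups overlap in every panel, and single libraries stand out for Mycl (317) and Mxd3 (395).

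Myc (ENSMUSG00000022346, chromosome 15, 61985391 to 61990374 in GRCm38) encodes the activator that gives the network its name. Wild-type libraries held 12164, 10577, 14019 and 10520.4 normalized counts of Myc, and the libraries labelled PROSER1 KO held 11879.7, 10534 and 11119. Wild-type replicate 3 was highest, and the KO-labelled libraries fell inside the wild-type range. Group means came to 11820.3 ± 1652 for wild-type (SD, n = 4) and 11178 ± 675 for the KO-labelled group (SD, n = 3). On the log2 scale limma gave a difference of -0.072 with a 95% interval from -0.29 to 0.15 (adjusted p = 0.867). Without wild-type replicate 3 the log2 fold change was 0.013, so that the direction for Myc rests on that library. The interval allows Myc mRNA in the KO-labelled group to be 0.817 to 1.11 times that in wild-type.

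Mycn (ENSMUSG00000037169, chromosome 12, 12936093 to 12941914), the paralog coexpressed with Myc in HSCs, had normalized counts of 2920.4, 2833, 2453 and 2744 in wild-type and 3267, 2638 and 2762 in the libraries labelled PROSER1 KO. Replicate 1 of the KO-labelled group was highest, and its other members lay among the wild-type values. The log2 fold change was 0.074 (95% interval -0.12 to 0.27, adjusted p = 0.830 from limma), and -0.017 without that replicate. Mycl (ENSMUSG00000028654, chromosome 4, 122995652 to 123002485), known for its part in dendritic cells, had 198, 111, 159.8 and 128 (wild-type) and 317, 129 and 156 in the KO-labelled libraries. Its fold change was the widest of the network (log2 0.35, 95% interval -0.36 to 1.05, adjusted p = 0.766 from limma) and came from replicate 1 of the KO-labelled group, without which it was -0.036. Mycn made up 16.1% ± 2.49 (SD, n = 4) of the summed per-length level of the 3 MYC genes for wild-type and 17.4% ± 0.745 (SD, n = 3) for the KO-labelled group. This share was lowest in wild-type replicate 3 (12.524%), the library in which Myc was highest.

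Max (ENSMUSG00000059436, chromosome 12, 76937269 to 76962201), the common partner, varied least among the 10 members, with a coefficient of variation of 4.00% in wild-type and 1.85% in the KO-labelled group. Counts for Max were 3845, 3677, 3599 and 3499.8 in wild-type and 3907, 3829 and 3765 in the libraries labelled PROSER1 KO. The averages, 3655 ± 146 over wild-type (SD, n = 4) and 3834 ± 70.7 over the KO-labelled group (SD, n = 3), differed by 0.069 on the log2 scale (95% interval -0.037 to 0.18, adjusted p = 0.679 from limma). The groups overlapped through wild-type replicate 1.

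Among the MXD repressors, Mxd1 (ENSMUSG00000001156, chromosome 6, 86647042 to 86669161), which accompanies the terminal differentiation of myeloid cells, had normalized counts of 1019, 1133, 1021 and 1044.5 in wild-type and 1114, 1175 and 1206 in the libraries labelled PROSER1 KO. It came closest of the members to the threshold, with a log2 fold change of 0.14 (95% interval -0.0024 to 0.29, unadjusted p = 0.0532, adjusted p = 0.519 from limma). Of the KO-labelled libraries, 2 lay above every wild-type library, and the groups overlapped through wild-type replicate 2.

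Mxi1 (ENSMUSG00000025025, chromosome 19, 53310518 to 53375810) had 1922, 1912, 1905 and 1708 (wild-type) and 2154, 1984 and 1855 in the KO-labelled libraries, a log2 fold change of 0.10 (95% interval -0.054 to 0.26, adjusted p = 0.680 from limma). KO-labelled replicates 1 and 2 lay above wild-type and replicate 3 below all but 1 wild-type library. Leaving out single libraries gave Mxi1 values of 0.045 (without KO-labelled replicate 1) to 0.15 (without KO-labelled replicate 3). Mxd4 (ENSMUSG00000037235, chromosome 5, 34173883 to 34187720), the MXD gene with the highest level per length here, had 5495, 5187, 5271 and 6162 in wild-type and 6721, 5073 and 6085 in the KO-labelled libraries (log2 fold change 0.10, 95% interval -0.11 to 0.32, adjusted p = 0.775 from limma). For Mxd4 the KO-labelled group held both the highest and the lowest library, and the log2 fold change was 0.010 without KO-labelled replicate 1 and 0.21 without KO-labelled replicate 2.

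Mxd3 (ENSMUSG00000021485, chromosome 13, 55325168 to 55329823) is the MXD gene linked to proliferating cells in S phase. Counts for Mxd3 were 273, 247, 291 and 268 in wild-type and 243, 395 and 252 in the libraries labelled PROSER1 KO. KO-labelled replicate 1 lay just below every wild-type library and replicate 3 at the lower end of wild-type, while replicate 2 stood apart on the high side. The log2 fold change was 0.10 (95% interval -0.29 to 0.49, adjusted p = 0.900 from limma) and -0.12 without that replicate. The same replicate had the highest value of the cell cycle list described later. Mxd3 shares 105 exon bases with Prelid1 on the other strand, which had 13.2 times its normalized counts. The strand setting of the read counting is not given in the sources used here, so that Mxd3 is uncertain to that extent.

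Mnt (ENSMUSG00000000282, chromosome 11, 74830920 to 74845725), the most broadly expressed antagonist of MYC, had 3027, 3249, 3359.7 and 2868 (wild-type) and 3100.3, 2928 and 2995 in the libraries labelled PROSER1 KO. All KO-labelled values lay within the wild-type range (log2 fold change -0.053, 95% interval -0.19 to 0.086, adjusted p = 0.835 from limma), with -0.018 without wild-type replicate 3 and -0.094 without wild-type replicate 4. Mga (ENSMUSG00000033943, chromosome 2, 119897228 to 119969581) had 7854, 8399, 8507 and 8963 in wild-type and 8213, 9044 and 9977 in the KO-labelled libraries. Replicates 2 and 3 of that group were above every wild-type library, and the log2 fold change was 0.10 (95% interval -0.055 to 0.26, adjusted p = 0.678 from limma). It was 0.033 without KO-labelled replicate 3 and 0.17 without KO-labelled replicate 1.

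**Figure D3:**
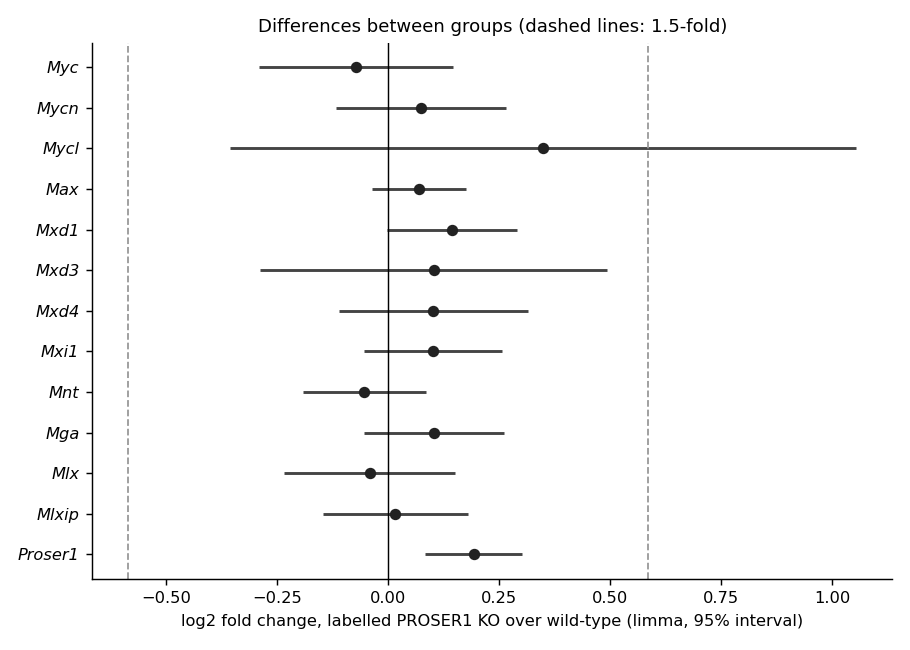
Log2 fold changes (libraries labelled PROSER1 KO over wild-type) of the 10 network genes, Mlx, Mlxip and Proser1, with 95% intervals from limma as lines and 1.5-fold differences as dashed lines. The interval of Mycl runs from -0.36 to 1.05, beyond the dashed line, and the others stay inside.

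The libraries differed in how the members sat together. Replicate 1 of the KO-labelled group held the highest count of 5 members (Mycn, Mycl, Max, Mxd4 and Mxi1), and wild-type replicate 4 held the lowest count of 4 (Myc, Max, Mxi1 and Mnt). Without KO-labelled replicate 1, 6 of the 10 members had a log2 fold change above 0 and the median was 0.028. Over the other single libraries left out, 7 to 9 members were above 0, and the count was 8 under every other scaling (quantile and TMM) and with DESeq2 and edgeR.

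The balance of activators and repressors was followed as the summed level per length of Myc, Mycn and Mycl over that of Mxd1, Mxd3, Mxd4, Mxi1 and Mnt. The ratio was 2.94, 2.57, 3.14 and 2.55 in wild-type and 2.67, 2.54 and 2.60 in the libraries labelled PROSER1 KO. Wild-type replicates 1 and 3 were high, and the other 5 libraries lay close together, with the groups overlapping. It averaged 2.80 ± 0.287 for wild-type (SD, n = 4) and 2.60 ± 0.0656 for the KO-labelled group (SD, n = 3), a difference of -0.10 on the log2 scale, within the wild-type SD of 0.15. This difference was -0.043 without wild-type replicate 3 and -0.14 without wild-type replicate 4. In wild-type the MYC genes summed to 134 ± 17.5 and the repressors to 47.6 ± 1.77 on the per-length scale. In the KO-labelled group the sums were 130.2 ± 9.06 and 50.003 ± 2.26. The summed level per length of the 9 partners of Max was 7.52 ± 0.600 times that of Max in wild-type and 7.10 ± 0.341 times in the KO-labelled group. Myc alone made up 50.1% ± 3.54 of the summed level of the 10 members in wild-type and 47.6% ± 0.432 in the KO-labelled group.

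Genes whose pattern over the 7 libraries was most like that of Myc or Mycn were taken from the 11995 genes compared, by the root mean square difference of centred log2 values. For Myc they included Mycbp (0.058) and G430095P16Rik (0.063), where Myc itself varied by 0.14. Mycbp had 509.7, 444, 540.2 and 402 (wild-type) and 485, 413 and 422 in the KO-labelled libraries, with its peak, like that of Myc, in wild-type replicate 3. Its log2 fold change of -0.10 was -0.036 without wild-type replicate 3 and -0.18 without wild-type replicate 4. For Mycn they were Fam221a (0.017), Fgd2 (0.045) and Otulinl (0.048), which, like Mycn, were highest in KO-labelled replicate 1 and lowest in wild-type replicate 3. G430095P16Rik shares 137 exon bases with Nfix on the other strand, which had 13.7 times its counts, and is uncertain.

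The MLX branch is the neighboring network, in which MLX pairs with the sugar-responsive factors MLXIP (MondoA) and MLXIPL (ChREBP). Mlx had 1018, 889, 1019.5 and 1134 (wild-type) and 1001, 937 and 1011 in the KO-labelled libraries (log2 fold change -0.042, 95% interval -0.24 to 0.15, adjusted p = 0.922 from limma). Mlxip had 6500.5, 6732, 6745 and 7264 in wild-type and 7289.7, 6067 and 7372 in the KO-labelled libraries (log2 fold change 0.016, 95% interval -0.15 to 0.18, adjusted p = 0.967 from limma). The KO-labelled values of Mlx lay within the wild-type range, and those of Mlxip reached beyond it at both ends. Mlxipl stayed between 1.04 and 9.27, near the limit that a count of 0 allows (3 read pairs, or 2.54 to 3.48 normalized counts), and was not tested. Mlx shares 385 exon bases with Psmc3ip on the other strand and is uncertain.

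The wider network was taken from 13 lists of 189 genes in all, the members and the MLX branch included, of which 176 could be tested. limma called 0 of the 176, as did DESeq2 and edgeR, and 16 were at an unadjusted p-value under 0.05 in limma, 8 higher and 8 lower in the KO-labelled libraries, beside 9.73% of all genes. The median log2 fold change of the union and that of all genes tested were both 0.0015.

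**Figure D4:**
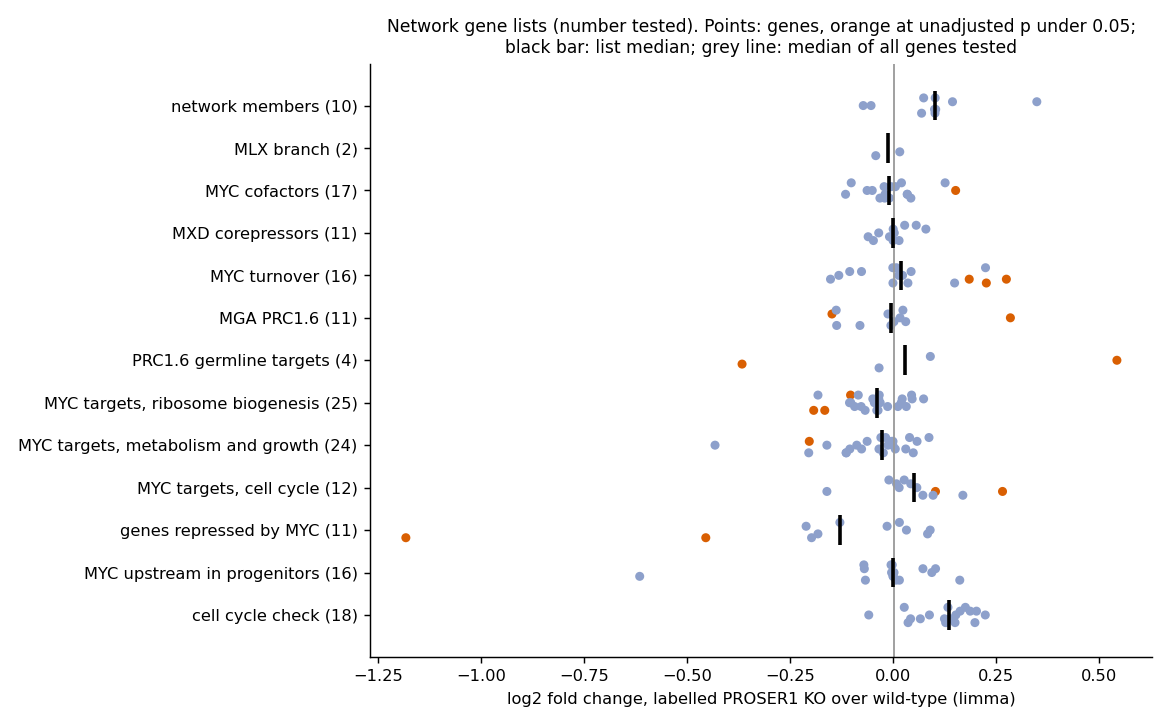
Log2 fold changes (libraries labelled PROSER1 KO over wild-type, limma) of the tested genes of the 13 network lists, with 1 point per gene, orange at an unadjusted p-value under 0.05, and a black bar at each list's median. The median of the 10 members (0.10) and of the cell cycle list (0.14) lie to the right of the grey line that marks all genes (0.0015), and the genes repressed by MYC lie to its left (-0.13).

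Cofactors through which MYC recruits acetyltransferases, chromatin remodelers and elongation factors had 7 of 17 genes higher, 10 lower and a median log2 fold change of -0.0087. Of these, 1 was at an unadjusted p-value under 0.05. This was Ccnt1, the cyclin of the elongation kinase P-TEFb, which averaged 3714 ± 194 for wild-type (SD, n = 4) and 4131 ± 309 for the KO-labelled group (SD, n = 3; log2 fold change 0.15, adjusted p = 0.471 from limma). Ep300, an acetyltransferase, had a log2 fold change of 0.13 (adjusted p = 0.547 from limma), and Mycbp2, the gene of the list with the highest normalized counts (not divided by length, as for every such gene named below), 0.043. Without KO-labelled replicate 3 the values were 0.098 for Ccnt1 and 0.078 for Ep300, and the highest were 0.21 for Ccnt1 (without KO-labelled replicate 1) and 0.20 for Ep300 (without KO-labelled replicate 2). With single libraries left out, 6 (without wild-type replicate 2 or 4) to 9 (without wild-type replicate 3) of the 17 were higher.

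The 11 genes of the corepressors that MXD proteins and MNT recruit had log2 fold changes from -0.060 (Sap18) to 0.080 (Sin3a) around a median of 0.00050, 7 higher and 4 lower, with 0 at an unadjusted p-value under 0.05 in limma. Sin3a, the scaffold that MXD proteins bind directly, had 5656, 5747, 5823 and 5692 (wild-type) and 6018, 6149 and 5999.6 in the KO-labelled libraries. The groups did not overlap for Sin3a, as for 5.17% of all genes in this direction, at an adjusted p of 0.542 from limma. Ncor1, with the highest counts of the list, differed by 0.0032. Sap18 had -0.028 without KO-labelled replicate 3. The number of higher genes depended on single libraries, with 4 of 11 without wild-type replicate 4 or KO-labelled replicate 2 and 8 without wild-type replicate 3.

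Factors that modify MYC protein or set its turnover had 10 of 16 genes higher, 6 lower and a median of 0.018, and 3 of them, Skp2, Aurka and Cip2a (the last named after its values were seen), were at an unadjusted p-value under 0.05. Skp2, an F-box protein that ubiquitinates MYC and the CDK inhibitor p27, had 1036, 1239, 1078 and 1076 (wild-type) and 1211, 1443 and 1367 in the KO-labelled libraries. Only wild-type replicate 2 reached the KO-labelled range (log2 fold change 0.28, 95% interval 0.085 to 0.47, adjusted p = 0.322 from limma). Aurka, a mitotic kinase that stabilizes MYCN, had 1072 ± 83.6 and 1257 ± 143 (log2 fold change 0.23, adjusted p = 0.460 from limma). Aurka had 0.15 without KO-labelled replicate 2 and 0.31 without KO-labelled replicate 1. Both are also expressed with the cell cycle, and the part of cycling cells in their difference was not tested. Huwe1, with the highest counts of the list, had a log2 fold change of -0.000059. Without KO-labelled replicate 1, 8 of the 16 were higher, and 11 were without KO-labelled replicate 2.

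PRC1.6, the Polycomb complex that MGA scaffolds, had 5 of 11 genes higher and 6 lower, with a median of -0.0050. This count turned on single libraries: 2 were higher without KO-labelled replicate 2 (median -0.042), 3 without wild-type replicate 1, 7 without wild-type replicate 2 and 8 without KO-labelled replicate 1. Rybp, a subunit of several PRC1 complexes, had 873, 1021, 1086 and 919 (wild-type) and 1121, 1228 and 1205 in the KO-labelled libraries, all above wild-type (log2 fold change 0.29, 95% interval 0.092 to 0.48, adjusted p = 0.309 from limma). L3mbtl2, a subunit particular to PRC1.6, had 1814, 1784, 1899.98 and 1716 in wild-type and 1515, 1688 and 1682 in the KO-labelled libraries, all below wild-type (log2 fold change -0.15, 95% interval -0.29 to -0.0090, adjusted p = 0.473 from limma), and -0.097 without KO-labelled replicate 1. Over the list the groups did not overlap for 1 gene that was higher and 3 that were lower, beside 5.17% and 4.83% of all genes.

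PRC1.6 is known for silencing germline genes outside the germline, and 15 such targets were listed. Their promoters held the E-box in 10 of 15 genes (66.7%), beside 8.09% of all genes with a window. The list was written from general knowledge of PRC1.6 targets, so that this share describes the list and is not a result of these data. Of the 15, 5 were at 0 in every library and 7 were under the limit of 3 read pairs in every library, these 5 among them (Hormad1, Mael, Mov10l1, Stk31, Sycp1, Taf7l and Tex101). In all, 4 genes could be tested. Stag3, a meiotic cohesin subunit, had 283, 273, 329.9 and 344 (wild-type) and 425, 449 and 467 in the KO-labelled libraries. All KO-labelled libraries lay above wild-type, as for 5.17% of all genes in this direction. The difference for Stag3 was 0.54 on the log2 scale (95% interval 0.29 to 0.80, unadjusted p = 0.000910, adjusted p = 0.126 from limma), the lowest adjusted p that limma gave among the 176 network genes tested. DESeq2 gave Stag3 an adjusted p of 0.00606, with a fold change still under 1.5, and over all alternatives the adjusted p ran from 0.00606 to 0.382 and the log2 fold change from 0.49 to 0.60. Ddx4, a germ cell RNA helicase, went the other way, with 616, 525, 498 and 442 in wild-type and 459, 371 and 376 in the KO-labelled libraries (log2 fold change -0.37, 95% interval -0.66 to -0.074, adjusted p = 0.396 from limma). Replicate 1 of the KO-labelled group overlapped wild-type replicate 4 for Ddx4. Tdrkh, with the highest counts of the list, had a log2 fold change of 0.091. The other 4 genes of the list passed the limit of 3 read pairs in at least 1 library but missed the minimum mean and were not tested (all 4 are named after their values were seen). The shares over all genes cover tested genes and so do not apply to them. Smc1b had 0.962, 3.61, 5.75 and 9.27 for wild-type and 23.99, 13.5 and 9.60 for the KO-labelled libraries, all of which lay above wild-type, though 9.27 and 9.60 nearly met. Slc25a31 went the other way, with 0, 3.61, 5.75 and 8.11 against 0, 0.846 and 0. Sycp3 had 2.88, 3.61, 14.9 and 1.16 against 6.26, 0 and 0.9601, and Meioc had 0.962, 0, 0 and 0 against 6.26, 0.846 and 0. Of the 4 tested genes, 1 was higher without KO-labelled replicate 3 and 3 were without wild-type replicate 3. The E-box begins 170 bases before the start of Stag3 (chr5:138280329-138280354, forward strand) and 29 before that of Ddx4 (chr13:112652324-112652349, reverse strand), both expressed here, and 94 before that of Sycp1 (chr3:102936179-102936204, reverse strand) and 49 before that of Taf7l (chrX:134476524-134476549, reverse strand), both at 0.
Stag3: cgctggagccCACGTGacaggactgc
Ddx4: cgtccgcccgCACGTGcagccgttta
Sycp1: gagaacccggCACGTGggaagggaaa
Taf7l: cctcttatacCACGTGacagaactcg

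Genes that MYC activates were split by function. In ribosome biogenesis, a classic output of MYC, 7 of 25 genes were higher and 18 lower, with a median log2 fold change of -0.039. Rrp9, which helps to process ribosomal RNA, had 1864, 1912, 1831 and 1559 (wild-type) and 1547, 1611 and 1531 in the KO-labelled libraries (log2 fold change -0.19, 95% interval -0.36 to -0.023, adjusted p = 0.444 from limma). Wild-type replicate 4 lay among the KO-labelled libraries. Rrp12 had -0.18 (adjusted p = 0.560 from limma) and -0.094 without KO-labelled replicate 1, and Bop1 (-0.17) and Gnl3 (-0.10), named after their values were seen, were with Rrp9 the 3 genes at an unadjusted p-value under 0.05. Bop1 was likewise lowest in KO-labelled replicate 1 (2607, against 3117 and 2873 in replicates 2 and 3), and its value without that library was not computed. Ncl, which encodes nucleolin and had the highest counts of the list, had a log2 fold change of 0.020.

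Mean deviations of this list from its 7-library mean were 0.060, 0.054, 0.051 and -0.082 in wild-type and -0.087, 0.040 and -0.036 in the KO-labelled libraries, on the log2 scale. Wild-type replicate 4 and KO-labelled replicate 1 were low, and the groups overlapped. Without wild-type replicate 4, 22 genes were lower and the median was -0.069. Without KO-labelled replicate 2, 22 were lower as well and the median was -0.079. Without KO-labelled replicate 1, 14 were lower and 11 higher.

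For the targets in metabolism and growth the counts were 7 of 24 higher and 17 lower, with a median of -0.026. Odc1, the first enzyme of polyamine synthesis and a direct MYC target, was the gene of this list at an unadjusted p-value under 0.05 (log2 fold change -0.20, 95% interval -0.36 to -0.048, adjusted p = 0.375 from limma, named after its values were seen). Slc2a1, the glucose transporter GLUT1, averaged 1161 ± 104 for wild-type (SD, n = 4) and 1008 ± 107 for the KO-labelled group (SD, n = 3; log2 fold change -0.20, adjusted p = 0.523 from limma). Pkm, with the highest counts, had -0.023, but 0.0082 under quantile scaling. Nme2 ranged from 17.4 to 46.2 counts (log2 fold change -0.43, 95% interval -1.26 to 0.40), but Gm20390, listed at 0, covers 48.9% of its exon bases on the same strand, so that its counts are uncertain. It had -0.23 without wild-type replicate 1 and -0.68 without wild-type replicate 4. Without KO-labelled replicate 1 or replicate 3, 12 genes of this list were higher and 12 lower. In the other direction, 20 were lower without wild-type replicate 4 (median -0.069) and 21 without KO-labelled replicate 2 (median -0.078).

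Among the cell cycle genes that MYC activates, 10 of 12 were higher and 2 lower, with a median of 0.050. E2f2, a factor of the G1/S transition, had 892, 923, 908 and 827 (wild-type) and 1117, 1039 and 1045 in the KO-labelled libraries. The groups did not overlap for E2f2, as for 5.17% of all genes in this direction (log2 fold change 0.27, 95% interval 0.11 to 0.42, adjusted p = 0.204 from limma). Ccnd2, a D-type cyclin, had 14682, 14093.5, 14328 and 14573 in wild-type and 15904, 15055 and 15510.1 in the KO-labelled libraries, again without overlap (2 of the 12 genes in all) but smaller (log2 fold change 0.10, 95% interval 0.010 to 0.20, adjusted p = 0.455 from limma). Bub1b had 0.17 (adjusted p = 0.631 from limma), with 0.075 without KO-labelled replicate 2 and 0.285 without KO-labelled replicate 1. Without KO-labelled replicate 2, 6 of the 12 were higher (median -0.0063), and 11 were without wild-type replicate 2 or KO-labelled replicate 1 or 3.

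The E-box was in 9 of the 22 matched promoters of the metabolism list (40.9%), 4 of 20 of the ribosome biogenesis list (20%) and 1 of 10 of the cell cycle list, beside 8.09% of all genes. The gene in the last was Cdk4, the kinase partner of D-type cyclins, whose window holds 4 copies. These begin 172, 118, 98 and 11 bases before its start (chr10:127063353-127063378, chr10:127063407-127063432, chr10:127063427-127063452 and chr10:127063514-127063539, forward strand). The 2 copies of Ldha, the lactate dehydrogenase of the metabolism list, begin 145 and 48 bases before its start (chr7:46845649-46845674 and chr7:46845746-46845771, forward strand). These lists of MYC targets were also written from general knowledge, so that their E-box shares describe the lists. Cdk4 and Ldha are shown as known MYC targets with several E-boxes in 1 window.
Cdk4, copy 1: ggcagccagtCACGTGccacacagcg
Cdk4, copy 2: gtcaaggggtCACGTGggatagcaac
Cdk4, copy 3: agcaacaggtCACGTGgccgtcaggg
Cdk4, copy 4: gggtgaagatCACGTGtccagaacgt
Ldha, copy 1: tgtcgcagcaCACGTGgagccactct
Ldha, copy 2: gcccagcctaCACGTGggttcccgca

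Genes that MYC represses were listed as 12, of which 11 were tested. Of these, 4 were higher and 7 lower in the KO-labelled libraries, with a median of -0.13. At an unadjusted p-value under 0.05 limma gave 2 of the 11, each lower, beside 9.73% of all genes. The median was -0.066 without wild-type replicate 1, -0.067 without wild-type replicate 3, -0.080 without KO-labelled replicate 2, -0.078 without KO-labelled replicate 3 and -0.17 without wild-type replicate 4, and -0.072 for the 10 genes averaging 50 or more. Ndrg2, a differentiation gene silenced by MYC, had 355, 379.5, 387 and 485 (wild-type) and 300.4, 259.8 and 315 in the KO-labelled libraries. These were all below wild-type, as for 4.83% of all genes in this direction (log2 fold change -0.45, 95% interval -0.75 to -0.16, adjusted p = 0.284 from limma). Cdh2, N-cadherin, had 70.2, 43.3, 44.8 and 86.9 in wild-type and 36.5, 9.31 and 46.1 in the KO-labelled libraries (log2 fold change -1.18, 95% interval -2.35 to -0.019, adjusted p = 0.504 from limma). KO-labelled replicate 2 was lowest for both. Cdh2 had -0.51 without KO-labelled replicate 2 and -1.60 without KO-labelled replicate 3. Itgb1, with the highest counts, had 0.033.

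Regulators upstream of Myc in progenitors (receptors, WNT effectors and hematopoietic factors) had 9 of 16 genes higher and 7 lower with a median of 0.00036, and 0 at an unadjusted p-value under 0.05 in limma. Kit, the receptor that defines the gate, had 29183 ± 2811 (wild-type) and 27815 ± 2101 in the KO-labelled group (log2 fold change -0.067, 95% interval -0.25 to 0.12). Tcf7l2 had 0.16 (adjusted p = 0.626 from limma). Lef1, at 17.8 to 54.1 normalized counts, had -0.61 with an interval from -1.53 to 0.30. All 3 depended on single libraries: Kit had -0.013 without KO-labelled replicate 1 and -0.13 without wild-type replicate 1, Tcf7l2 had 0.059 without KO-labelled replicate 1 and 0.25 without KO-labelled replicate 2, and Lef1 had -1.09 without KO-labelled replicate 1 and -0.32 without KO-labelled replicate 2. Of the 16 genes, 5 were higher without KO-labelled replicate 1 and 12 without wild-type replicate 3.

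A list of proliferation genes was read beside the network because MYC targets follow cycling. Of its 18 genes, 17 were higher and 1 lower in the KO-labelled libraries, with a median of 0.14 and 0 at an unadjusted p-value under 0.05 in limma. Mean deviations were -0.095, -0.077, 0.098 and -0.13 in wild-type and -0.098, 0.22 and 0.090 in the KO-labelled libraries. KO-labelled replicates 2 and 3 and wild-type replicate 3 were high, so that the groups overlapped. Mki67, a marker of cycling cells and the gene of the list with the highest counts, had 18111, 18417, 23626 and 20795 (wild-type) and 20038, 23743 and 25278 in the KO-labelled libraries (limma log2 fold change 0.19, adjusted p = 0.605). Cdk1 (0.22) and Ccna2 (0.20) followed the same libraries. Without KO-labelled replicate 1 the values were 0.28 for Mki67, 0.36 for Cdk1 and 0.32 for Ccna2, and the lowest were 0.12 for Mki67 (without KO-labelled replicate 3) and 0.12 and 0.093 for Cdk1 and Ccna2 (without KO-labelled replicate 2). Without KO-labelled replicate 2, 13 of the 18 were higher and the median was 0.061, and without wild-type replicate 4 the values were 13 and 0.11. The median was 0.24 without KO-labelled replicate 1 and 0.20 without wild-type replicate 3. How far cycling accounts for the values of Mxd3, Skp2, Aurka or E2f2 was not tested.

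**Figure D5:**
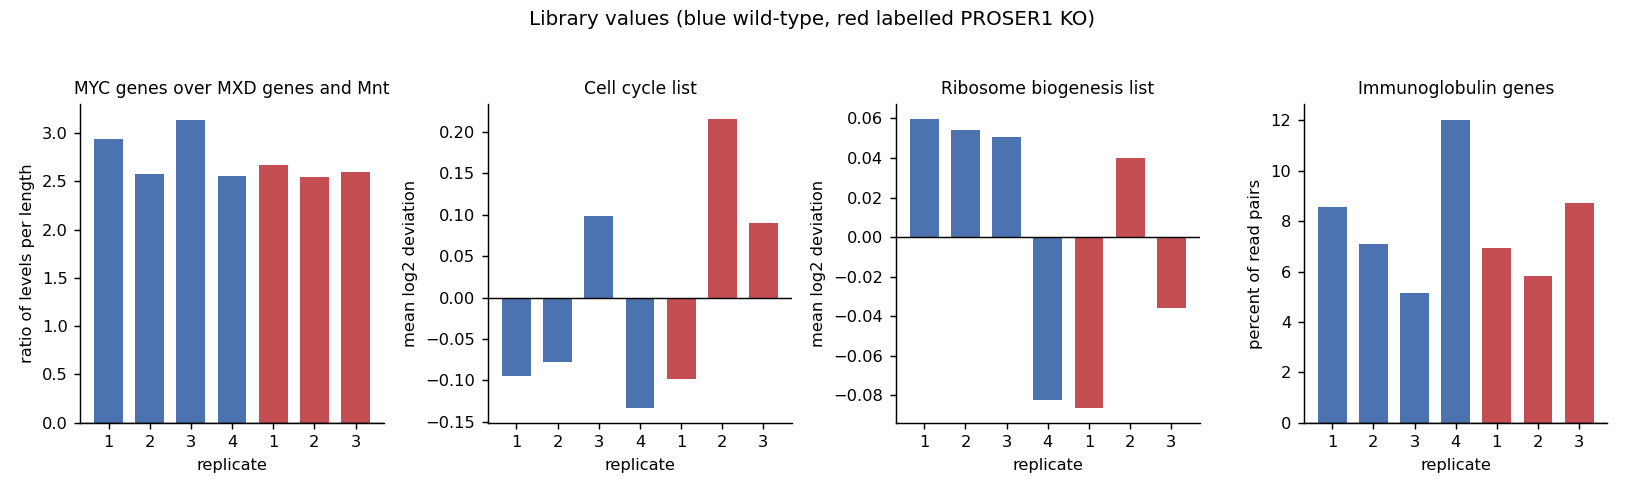
Values by library (blue wild-type replicates 1 to 4, red labelled PROSER1 KO, replicates 1 to 3): the ratio of the MYC genes to the MXD genes and Mnt, the mean log2 deviation of the cell cycle and ribosome biogenesis lists, and the percent of read pairs on immunoglobulin genes. The ratio is highest in wild-type replicate 3 (3.14), the cell cycle list in KO-labelled replicate 2 (0.22), and the immunoglobulin share in wild-type replicate 4 (12.03%).

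The sorted cells carried the markers of their gate. All 12 genes of the LSK gate list were tested, with Cd34 the highest at 32235 normalized counts. Their median log2 fold change was -0.012 (4 higher, 8 lower, 1 at an unadjusted p-value under 0.05, and 0 called by limma). The gene under 0.05 was Mecom (named, like Slamf1, after its values were seen). Mecom had 2683, 3030, 2772 and 2790 in wild-type and 2160, 2610 and 2365 in the KO-labelled libraries. The latter were all below wild-type, as for 4.83% of all genes in this direction (log2 fold change -0.25, adjusted p = 0.282 from limma). In the other direction, Slamf1 had 0.28, with groups that overlapped. Plasma cell genes were abundant as well, and all 8 of that list were lower in the KO-labelled libraries (median -0.27, limma called 0 and gave 0 at an unadjusted p-value under 0.05). Their summed normalized counts, mostly Jchain, ran from 172210.0 in wild-type replicate 3 to 432130.0 in wild-type replicate 4. Mean log2 deviations of this list were 0.24, -0.032, -0.49 and 0.82 in wild-type and -0.18, -0.49 and 0.12 in the KO-labelled libraries. Wild-type replicate 4 was thus highest, and the groups overlapped. The count of 8 lower genes and the median were not recomputed without that library. Immunoglobulin genes took 8.55%, 7.10%, 5.155% and 12.03% of read pairs in wild-type and 6.93%, 5.805% and 8.715% in the KO-labelled libraries. Wild-type replicate 4, with the highest share, is also the library with the lowest counts of 4 members and wild-type replicate 3, with the lowest share, has the highest Myc. Of the 2 low libraries of the ribosome biogenesis list, wild-type replicate 4 (-0.082) had the highest immunoglobulin share, but KO-labelled replicate 1 (-0.087) had 6.93%. The sort takes cells that are negative for lineage markers and positive for Sca1 and cKit, which should remove mature cells, and the part of plasma cell RNA in these values was not tested. Without wild-type replicate 4, limma again called 0 members, and 8 of the 10 were above 0.

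Markers of other lineages set KO-labelled replicate 1 apart. Its mean log2 deviation was 1.27 for the 8 T and innate lymphoid genes (highest counts for Nkg7), 0.68 for the 8 B-lineage genes (Cd79b) and 0.61 for the 6 megakaryocyte genes (Itga2b), the highest of the 7 libraries for each. In the KO-labelled libraries 3 of 8, 4 of 8 and 6 of 6 genes of these lists were higher, with medians of -0.059, 0.21 and 0.36, the last the highest of the lists. limma called 0 of them and gave 1, 3 and 1 at an unadjusted p-value under 0.05, beside 9.73% of all genes. In KO-labelled replicates 2 and 3 the mean deviations were -0.77 and -0.011 (T and innate lymphoid), -0.33 and 0.22 (B-lineage), and 0.23 and -0.26 (megakaryocyte). Gp9 and Ppbp of the last list, named after their values were seen, were lowest in KO-labelled replicate 3. The counts and medians were not recomputed without KO-labelled replicate 1. KO-labelled replicate 1 is also the library with the highest Mycn, Mycl, Max, Mxd4 and Mxi1. Summed normalized counts in wild-type replicates 1 to 4 and KO-labelled replicates 1 to 3 were, for the T and innate lymphoid genes, 5726, 4618, 4925, 4197, 5666, 3891 and 4615. For the B-lineage genes they were 5745, 4689, 3409, 6834, 5424, 3478 and 5126. For the megakaryocyte genes they were 8076, 8906, 7062, 7949, 12026, 9558 and 9238. KO-labelled replicate 1 thus led the sum of the last list, while those of the other lists were highest in wild-type replicates 1 and 4. None of the listed markers was at 0 in all libraries. Mature cells of these lineages should likewise be removed by the sort. Their part in the values of the members was not tested, and without this replicate the log2 fold changes of Mycn and Mycl were below 0, as given with each gene.

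For the other lineages, 4 of 9 tested granulocyte and monocyte genes (highest counts for Mpo), 4 of 7 erythroid genes (Car1) and 2 of 5 mast cell and basophil genes (Cpa3) were higher in the KO-labelled libraries. In each of these lists limma called 0 genes, with 2, 0 and 2 reaching an unadjusted p-value under 0.05, beside 9.73% of all genes. Xist and 4 genes of the Y chromosome, of which Ddx3y had the highest counts, were detected in all 7 libraries, and 3 of these 5 genes were higher (0 called by limma, 1 at an unadjusted p-value under 0.05).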

How the data were processed

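The table covers sorted LSK cells as 4 wild-type and 3 PROSER1 KO libraries, grouped here by their labels. The deposited values are a signal per gene: the authors trimmed reads with Trimmomatic, aligned them to mm10 (GRCm38.p6) with STAR, obtained counts from featureCounts and scaled them with DESeq2. The annotation is GENCODE release 25 in the methods and vM10 in the header of the identifiers, and versions of these tools are not given in the sources used here. The smallest step of each library served to turn values back into read pairs, and 100% were whole within 0.01. The table has 0 columns of other samples, and 685 of its 48440 genes lack a symbol (at most 0.135% of reads). Depth was 33143619 to 45140743 read pairs on genes, where 3 read pairs are the limit that a count of 0 allows, which covers counting error only. Between libraries of a group, chi-square over its degrees of freedom was 30.4 to 96.6, above the 1 of counting alone. This does not tell separate animals from separate preparations of 1 RNA, and the replicates are biological by their labels.

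limma 3.58.1 (R 4.3.3; lmFit, then eBayes allowing for the trend of variance with mean) was applied to log2(normalized count + 1) for 16251 genes averaging 10 or more, two-sided, with Benjamini-Hochberg adjustment across them. Fold changes are on this scale, which understates those of low genes. Intervals are 95%. Simulated counts in which chosen genes differed served to try the procedure out. Levels per length used exon unions of GENCODE M21. Promoter sequences are those of RefSeq (GRCm38.p6), 250 bases before to 50 after the start, searched for CACGTG.

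The 13 network lists (members, MLX branch, MYC cofactors, MXD corepressors, MYC turnover, MGA PRC1.6, its germline targets, MYC targets in ribosome biogenesis, in metabolism and growth and in the cell cycle, genes repressed by MYC, regulators upstream of MYC, and a cell cycle check) and the 9 marker lists were written from general knowledge. The members and lists were chosen with earlier results of these data known, so that no test was run over a list. Immunoglobulin genes (396) were taken by symbol after their levels had been seen. Named genes were every member, the MLX branch and Proser1, for each other list any called gene, the tested gene with the highest mean normalized count (not divided by length) and the 2 with the largest fold changes, the 3 nearest profiles of Myc and Mycn, and the gene of each marker list with the highest mean normalized count. The result of 1 gene named by this rule is not reported here. Genes whose sequences are shown were picked for their E-boxes, and others are marked as named after their values were seen.

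Alternatives were a pseudocount of 0.1 or 10, testing all genes or those averaging 50 or more, a variance without trend, robust variance estimates, quantile and TMM scaling, edgeR 4.0.16 (quasi-likelihood) and DESeq2 1.42.0 on read pairs (40 and 165 genes called, DESeq2 after its own filter, which left 18903 genes), no fold change minimum, a replicate block (which also drops wild-type replicate 4), each library left out and, for the balance, no division by length. Leaving out each library for the level of Myc over Max was added after seeing the data.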

Additional observations from a re-analysis of the deposited data

Results flagged for a closer look

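In each wild-type group of 4 values, the gap between the most distant library and its nearest neighbor was compared with the whole range. Chance alone sets a library apart in about 1 in 20 groups, and 6 of the 88 groups examined had one.

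Wild-type replicate 4 stood apart on the low side for 4 of these values. They were Mxi1 (1708 normalized counts), Tfdp1 (7655), the mean log2 deviation of the MXD corepressor list (-0.078) and that of the ribosome biogenesis list (-0.082). The same library has the highest share of immunoglobulin read pairs (12.03%), whose part in these values was not tested. Wild-type replicate 1 stood apart on the high side for Sap18 (3152 normalized counts), and wild-type replicate 3 on the high side for Bub1b (4628).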

How the results depend on the processing

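The count of members called by limma, 0, and the corresponding counts of the network lists were 0 under every alternative run, with DESeq2 and edgeR included, and 0 members were at an unadjusted p-value under 0.05 in the reported limma comparison. The higher Proser1 mRNA in the libraries labelled PROSER1 KO, the balance of activators and repressors and the level of Myc over Max kept their direction under every alternative tried for them. Without each library in turn the log2 balance difference ran from -0.14 to -0.043, and that of Proser1 from 0.17 to 0.21. The median shift of all genes was at most 0.0034 in size.

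Of all genes, 42 were called, against 17 without the variance trend, 80 with robust variance estimates and 165 with DESeq2, and leave-one-out comparisons called 23 (without KO-labelled replicate 2) to 42 (without wild-type replicate 3). The cause was not tested.

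Of 933 alternative values for 52 named genes, 892 kept their direction, with no gene called, and 41, in 18 genes, had the other sign. Stag3 passed an adjusted p of 0.05 with DESeq2 (0.00606) but not the fold change minimum. Leaving out 1 library gave log2 fold changes of -0.12 to 0.013 for Myc (above 0 without wild-type replicate 3), -0.017 to 0.14 for Mycn and -0.036 to 0.61 for Mycl (below 0 without KO-labelled replicate 1), and -0.12 to 0.23 for Mxd3 (below 0 without KO-labelled replicate 2). The ranges were -0.10 to 0.013 for Mlx, -0.033 to 0.11 for Mlxip, -0.028 to 0.082 for Mycbp2, -0.017 to 0.029 for Ncor1, -0.050 to 0.047 for Huwe1, -0.062 to 0.016 for Tfdp1, -0.0046 to 0.25 for Tdrkh and -0.014 to 0.046 for Ncl. They were -0.071 to 0.0030 for Pkm, -0.019 to 0.075 for Itgb1, -0.086 to 0.028 for G430095P16Rik, -0.029 to 0.12 for Fam221a, -0.0049 to 0.17 for Fgd2 and -0.051 to 0.13 for Otulinl. Quantile scaling gave 0.029 for Huwe1 and 0.0082 for Pkm, and TMM, edgeR and DESeq2 gave 0.00014, 0.0014 and 0.0013 for Huwe1. The cause was not tested.

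A replicate block, which pairs replicates 1 to 3 of the groups and so leaves out wild-type replicate 4, gave 37 called genes and log2 fold changes of 0.013 for Mlx, 0.026 for Huwe1 and -0.0054 for Ncl, the values found without that library. Correlations between libraries of the same number were 0.0625, 0.104 and -0.193, so that these values give no sign of pairing.

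With 4 against 3 libraries, a difference smaller than the stated interval of a gene is not resolved. Depth limits Mlxipl and the germline genes at or near 0, where 3 read pairs (2.54 to 3.48 normalized counts) are the limit. The counting of reads on overlapping genes was not examined. Other cell populations, protein levels and binding of the network to DNA were not analysed here.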
